A study of Homo sapiens with 2 samples.

Results

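The 31 genes described here encode the folding, translocation and degradation machinery of the endoplasmic reticulum (ER), the compartment in which secreted and membrane proteins are made. They were chosen by name for these roles and not by a rule on measured values, but earlier results of these data were known. Of the 31, 30 had at least 1 probe set paired with that gene alone, out of 19775 genes with such a probe set, and these 30 were read by 81 probe sets. The expression of SYVN1, the ubiquitin ligase of the ER membrane also known as HRD1, is not analysed here, but its promoter is among those searched below.

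The measurements come from HCT116, an established human colorectal cancer line, grown in RPMI-1640 medium with fetal calf serum. Total RNA was labelled with biotin and hybridised to 3′ expression arrays, 1 array for the cells titled HCT116-GFP, whose genotype is given as wild type, and 1 array for the cells titled HCT116-CPEB4, made to over-express the RNA-binding protein CPEB4 with a lentiviral vector. Whether the GFP cells carry a vector, and whether the over-expressing line is a clone or a pool, is not stated in the labels. Neither group has a replicate, so no test was possible and no p-value is given.

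Proteins enter the ER through the SEC61 channel, lose their signal peptide to the signal peptidase complex, and are folded by the Hsp70 chaperone BiP (HSPA5), the Hsp90 chaperone GRP94 (HSP90B1), the lectins calnexin and calreticulin, and the protein disulfide isomerases. Molecules that fail to fold are passed back to the cytosol and degraded, a route called ER-associated degradation. When unfolded proteins accumulate, the sensors IRE1 (ERN1), ATF6 and PERK (EIF2AK3) start the unfolded protein response. IRE1 splices the XBP1 mRNA, and the resulting factor, together with cleaved ATF6, switches on many of the chaperone and degradation genes listed here.

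Both arrays held 54675 probe sets with medians of 60.6 (HCT116-GFP) and 61.1 (HCT116-CPEB4) intensity units. CPEB4 itself was no higher on the array labelled HCT116-CPEB4, since its 3 probe sets past the dim filter (60.8 units on at least 1 array) differed by −0.44, −0.22 and −0.075 on the log2 scale, and the other was under it at 60.1 and 21.0 units. The second array is therefore called the CPEB4-labelled array, and every direction below rests on its label. All 8 colon epithelial markers passed the dim filter, 1 of them differed by at least 2-fold, and their summed intensity was 88885 and 89469. Of the fibroblast, blood and endothelial markers, 2 of 5, 2 of 5 and 1 of 4 passed it, of which 1, 1 and 0 differed by at least 2-fold, with COL1A1 the brightest at 949 and 1292 units, and none of the markers was listed at 0. Their part in the differences below was not tested. The ratio of 3′ to 5′ signal of the ACTB control probe sets was 8.23 for HCT116-GFP and 10.3 for the CPEB4-labelled array, and that of GAPDH was 0.989 and 1.04. The log2 difference, CPEB4-labelled minus HCT116-GFP, was thus −0.013 at the 3′ end of ACTB and −0.34 at its 5′ end. For GAPDH it was −0.085 and −0.15. How far the differences below depend on the part of a transcript that is read was not tested.

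The ER genes differed little between the arrays. All differences are log2 intensities of the CPEB4-labelled array minus those of HCT116-GFP, taken for each gene at its brightest probe set past the dim filter. All 30 measured genes passed the filter, and 0 of them reached a 2-fold difference, against 3.55% of the 13704 genes tested that were at least 2-fold higher and 3.85% that were at least 2-fold lower. The difference ran from −0.52 at PDIA4, a disulfide isomerase, to 0.56 at XBP1, the transcription factor of the unfolded protein response. The median was −0.036 over the 30 genes and 0.00090 over all genes tested, with 13 of the 30 above 0 against 50.1% of all genes. In a culture, less of a transcript in every cell and fewer cells with it cannot be told apart.

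At a smaller step of 1.2-fold, a size chosen after the values were seen, 4 of the 30 were higher (XBP1, DERL2, HYOU1 and SSR1) against 21.7% of all genes, and 5 were lower (PDIA4, ATF6, ERN1, EDEM1 and SEL1L) against 22.0%. The ER genes are bright, and bright genes differ less on these arrays. Among the 8463 genes with at least 377 units on 1 array, 0.473% were at least 2-fold higher and 0.165% at least 2-fold lower, so a count of 0 among the 29 ER genes in that class lies near the background. At 1.2-fold, 16.2% and 16.0% of these bright genes were higher and lower, against 4 and 4 of the 29. The median absolute difference was 0.18 for the 29 bright ER genes and 0.17 for all bright genes.

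**Figure D1:**
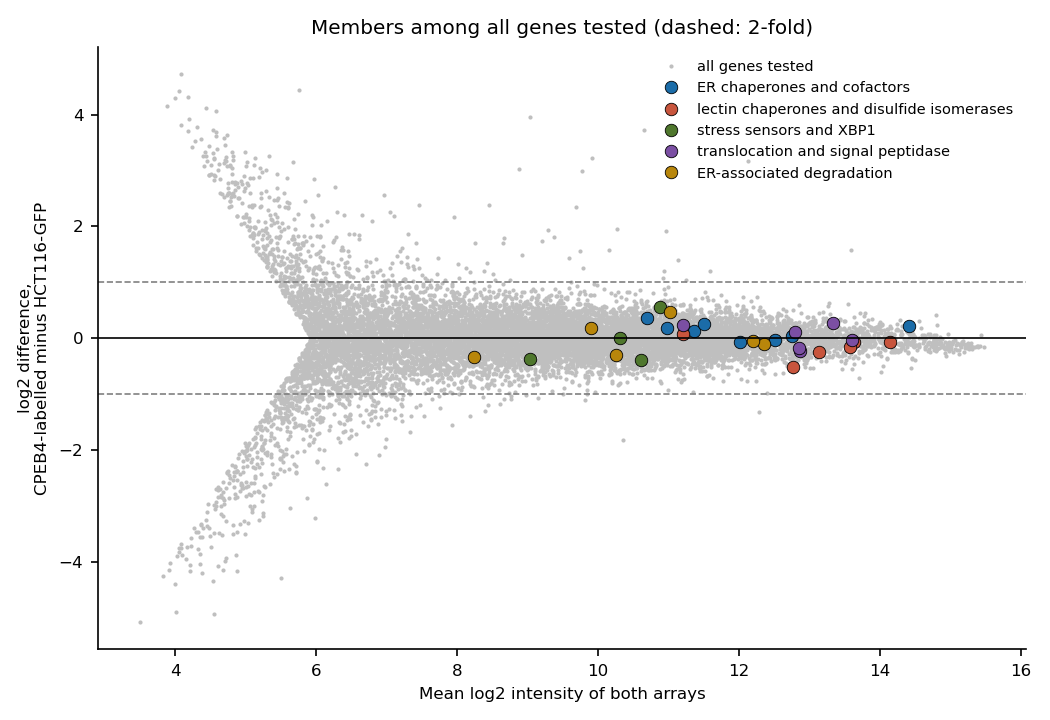
Log2 difference of the CPEB4-labelled array minus the HCT116-GFP array (vertical axis) against the mean log2 intensity of both arrays (horizontal axis) for the 13704 genes tested (grey) and the 30 measured ER genes (coloured by role). The ER genes all lie between the dashed 2-fold lines, from −0.52 to 0.56, in the brighter part of the range where the grey points are also narrow.

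Some genes were read by several probe sets, which are the sole repeat measurement on these arrays and are technical. Of 75 probe sets of the ER genes past the dim filter, 40 lay above 0 and 35 below, against 50.4% above 0 of all 25010 kept probe sets. Of the 75, 1 reached 2-fold (SEL1L, 1.22), where 1150 of the 25010 were at least 2-fold higher and 1120 at least 2-fold lower. That SEL1L probe set read 57.1 units for HCT116-GFP, under the dim filter, and 133 for the CPEB4-labelled array. For 21 of the genes at least 2 probe sets passed the filter, and all of a gene's probe sets fell on the same side of 0 for 11 of them, 6 above and 5 below, against 45.5% of the 6520 such genes on the arrays. In 11 of the 21 the difference at the brightest probe set was larger than the gap between the brightest pair of probe sets, against 37.1% of the 6520. The median of that gap was 0.18 for the ER genes and 0.27 for all genes with several probe sets, so differences under about that size were within the disagreement between probe sets of 1 transcript. The values for the 25010 probe sets and the 6520 genes include dim ones and were not matched to the brightness of the ER genes. They therefore do not show that the ER genes agree better or differ less than other genes as bright.

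**Figure D2:**
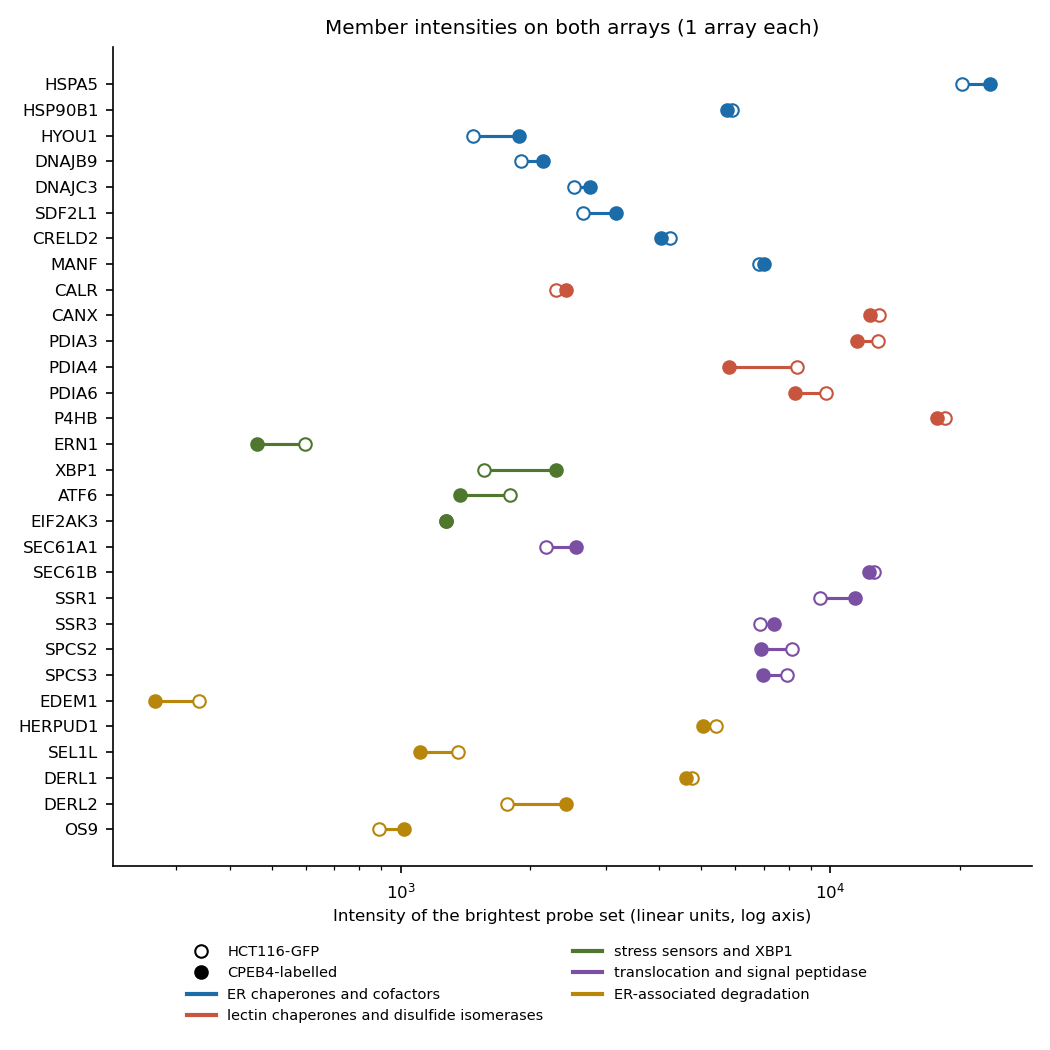
Intensity of the brightest probe set of each ER gene (horizontal log axis, linear intensity units) on the HCT116-GFP array (open circles) and the CPEB4-labelled array (filled circles), 1 array each, coloured by role. The members with the widest spacing are XBP1 (1558 and 2292), PDIA4 (8341 and 5817) and DERL2 (1765 and 2428), and intensities of different probe sets are not levels that can be set against each other.

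One feature shared by part of these genes is the promoter element through which ATF6 and XBP1 act. Many of the listed genes are known to be switched on by these factors, so the shares below are not independent of their choice. RefSeq promoter windows (GRCh38.p14, 250 bases before to 50 after a gene's start) were found for 29 of the 31 genes. The ER stress element, CCAAT and CCACG with 9 bases of any kind between them on either strand, was present in the windows of 7 of these 29 genes (HSPA5, HSP90B1, CRELD2, CALR, CANX, PDIA6 and XBP1), and in those of 0.0916% of all 27305 genes. Its second form, ATTGG and CCACG with 1 base between them, was present in 3 of the 29 (HYOU1, SDF2L1 and HERPUD1) and in 0.0696% of all genes. The shorter unfolded protein response element, TGACGTGG, was found in HYOU1 and SSR3 and in 0.927% of all genes, and in HYOU1 it overlaps 1 of the 2 sites of the second form. EDEM1, a known XBP1 target, is not among the genes with a site. However, 2 of the 31 genes had no window to search, and which they are is not given here. The sites of both forms of the ER stress element are shown with 29 bases each. They run 5′ to 3′ on the strand that reads as the element, with the element in capitals.
HSPA5, chr9:125241386-125241414, minus strand: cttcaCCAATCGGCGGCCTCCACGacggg
HSP90B1, chr12:103930211-103930239, plus strand: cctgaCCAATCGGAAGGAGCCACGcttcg
HSP90B1, chr12:103930316-103930344, minus strand: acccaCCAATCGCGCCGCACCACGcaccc
CRELD2, chr22:49918549-49918577, minus strand: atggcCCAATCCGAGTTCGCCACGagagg
CALR, chr19:12938379-12938407, minus strand: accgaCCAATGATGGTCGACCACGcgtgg
PDIA6, chr2:10812848-10812876, minus strand: ccggaCCAATGAGCCGCAGCCACGgcttg
XBP1, chr22:28800598-28800626, minus strand: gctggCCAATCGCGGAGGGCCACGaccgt
HYOU1, chr11:119057265-119057293, plus strand: cgcgtactcATTGGACCACGtcccaggcc
HYOU1, chr11:119057371-119057399, plus strand: cggcctgggATTGGACCACGtcacggggc
SDF2L1, chr22:21642105-21642133, minus strand: agggttttgATTGGTCCACGcttccgagg
HERPUD1, chr16:56932016-56932044, plus strand: cggacgccgATTGGGCCACGttgggagag

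The sites lie upstream of the transcribed part of the gene, with the element of XBP1 starting 52 bases and that of HSPA5 66 bases before the annotated start. The site of CANX spans 1 of its annotated starts and is not printed. The 10 genes with either form of the ER stress element went both ways on the arrays, 5 above 0 and 5 below, with a median of 0.018 and a range from −0.24 at PDIA6 to 0.56 at XBP1. The 18 measured genes with a window and neither form had a median of −0.018, with 8 above 0 and 10 below. Outside the list, 21 tested genes had either form, and their median was 0.012, with 11 above 0 and 10 below. A match to these letters is a description of the sequence and not of binding.

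The ER chaperones and their cofactors were the role group with the highest median, 0.15 over 8 genes, with 6 above 0, 1 of them past 1.2-fold, and 2 below. Of all genes tested, 50.1% lay above 0 and 21.7% were at least 1.2-fold higher. Counts above 0 in the groups and lists below stand beside the same 50.1%. HSPA5, the Hsp70 of the ER that also holds the stress sensors inactive, read 20278 units for HCT116-GFP and 23550.5 units for the CPEB4-labelled array, in the order used for all pairs below, a difference of 0.22. Its second probe set read 895 and 1076 (0.27), so both were higher on the CPEB4-labelled array and agreed to within 0.049. HYOU1, the large Hsp70-like protein that releases nucleotide from BiP, read 1472 and 1879 at its single probe set, a difference of 0.35 or 1.28-fold. HSPA5 holds the first form of the ER stress element shown above, and HYOU1 the second.

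SDF2L1, a partner of the ER J-domain proteins, read 2655 and 3174 (0.26) at its single probe set. DNAJB9, a J-domain protein that restrains IRE1 through BiP, read 1901 and 2144 (0.17), and its 3 probe sets ran from 0.0017 to 0.57. All of its probe sets were thus on the higher side, although they spread over a wider range than the difference itself. DNAJC3, the J-domain protein also known as P58IPK, read 2529 and 2750.3 (0.12), with 3 probe sets above 0 and the dimmest at −0.28.

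The other chaperone genes were close to 0. MANF, a secreted stabiliser of BiP complexes, read 6823 and 6991 (0.035), and CRELD2, a secreted ER stress gene, read 4242 and 4036 (−0.072). HSP90B1, the Hsp90 of the ER, read 5900.4 and 5750.25 at its brighter probe set (−0.037) and 688 and 618 at the other (−0.16), both lower on the CPEB4-labelled array. HSP90B1 and CRELD2, which lay slightly below 0, hold the same element as HSPA5, which lay above it. The group median was 0.035 when probe sets with the suffixes of possible cross-hybridisation were left out, where HYOU1, SDF2L1 and HSP90B1 have no value and DNAJB9 is read by a dimmer probe set at 0.0017.

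Of the 6 lectin chaperones and disulfide isomerases, 5 lay below 0, where 50.1% of all genes lay above 0, and the median was −0.12. PDIA4 alone was at least 1.2-fold lower, against 22.0% of all genes. CANX, PDIA3 and P4HB had probe sets on both sides of 0. PDIA4, a disulfide isomerase of the thioredoxin family also known as ERp72, read 8341 and 5817, a difference of −0.52 that placed it at percentile 9.75 of all genes tested. Its second probe set read 2534 and 1579 (−0.68), so both probe sets were lower on the CPEB4-labelled array by more than the 0.16 between them. It was the member with the largest negative difference, 1.43-fold. PDIA6, a disulfide isomerase that also regulates IRE1, read 9773 and 8256 (−0.24), and all 4 of its probe sets lay below 0, from −0.28 to −0.035.

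The remaining isomerases and the lectins were nearer to 0 or split between probe sets. PDIA3, which works with the lectin chaperones on glycoproteins, read 12881 and 11539 (−0.16), while its dimmer pair of probe sets lay at 0.062 and 0.077. P4HB, the founding disulfide isomerase and a subunit of prolyl hydroxylase, read 18497 and 17727 (−0.061) and ran from −0.22 to 0.14 over 3 probe sets. Its direction is therefore not settled. CANX, the membrane lectin calnexin, read 12989 and 12331 (−0.075), with 3 of its 4 kept probe sets below 0.

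CALR, the soluble lectin calreticulin, was the gene of this group on the higher side. It read 2299.7 and 2419 (0.073) at its brightest probe set, 999 and 1365 (0.45) at the next and 119 and 189.6 (0.68) at the dimmest. All 3 were higher on the CPEB4-labelled array, but their range of 0.60 far exceeds the difference at the brightest. CALR and CANX, which bind the same glycans, lay on opposite sides of 0 at their brightest probe sets. Both differences were smaller than the median gap of 0.18 between probe sets of the ER genes.

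The sensors and XBP1 were the role group with the widest spread, an SD of 0.44 over its 4 genes, with 1 above 0 and 3 below. XBP1 read 1558 and 2292, a difference of 0.56 or 1.47-fold at percentile 91.2 of all genes, at its single probe set past the dim filter. Its other probe set was dim on both arrays, at 22.8 and 18.6 units. No source used here says which part of the transcript a probe set reads, so the spliced and unspliced forms of XBP1 were not told apart. ERN1, the kinase and ribonuclease that splices XBP1, was lower at each of its 3 probe sets, with 597 and 462 (−0.37), 217 and 141 (−0.62) and 103 and 70.5 (−0.54). The mRNA of the enzyme and that of its substrate therefore lay on opposite sides of 0.

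ATF6, the membrane-anchored transcription factor, read 1791 and 1375 (−0.38) at its brightest probe set and 721 and 423 (−0.77) at the next. Its dimmer probe sets read 407 and 416 (0.032) and 123 and 159 (0.37), so the direction of ATF6 depends on the probe set. EIF2AK3, the PERK kinase that slows translation under stress, read 1272 and 1271 (−0.0014), the smallest difference among the 30 genes, with its other probe set too dim to keep. Over these 4 genes the median was −0.19.

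**Figure D3:**
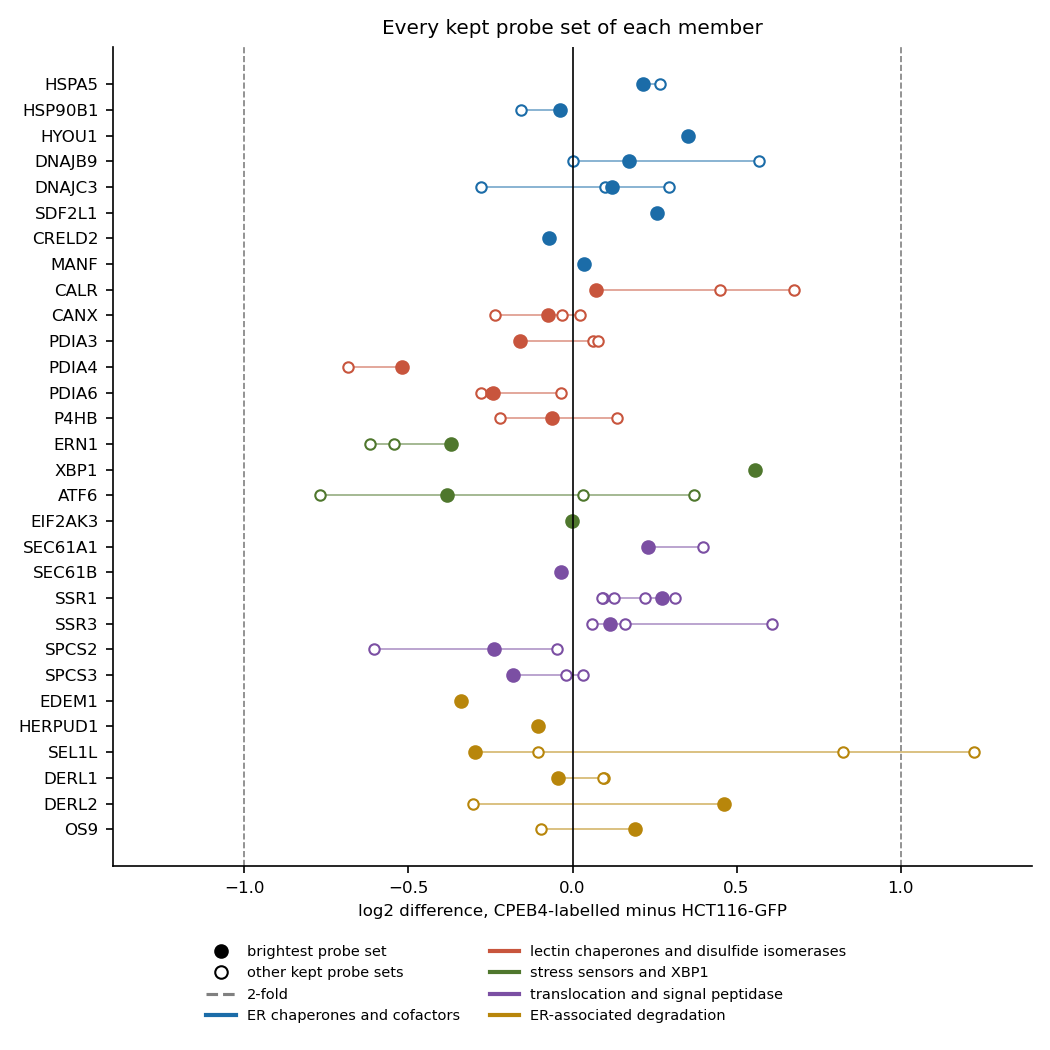
Log2 difference of the CPEB4-labelled array minus the HCT116-GFP array (horizontal axis) for every kept probe set of each ER gene, with the brightest filled, the others open and 2-fold dashed. HSPA5, SSR1 and SSR3 have every probe set above 0, PDIA4, PDIA6 and ERN1 have every probe set below 0, and SEL1L and ATF6 spread to both sides by more than 1 log2 unit.

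Of the 6 translocation and signal peptidase genes, 3 lay above 0 and 3 below. SSR1, a subunit of the translocon-associated protein complex that assists the SEC61 channel, read 9434 and 11405 (0.27), and all 6 of its probe sets lay above 0, from 0.089 to 0.31. SSR3, another subunit of that complex, read 6841 and 7401 (0.11) with all 4 probe sets above 0, from 0.059 to 0.61. Both subunits were thus higher on the CPEB4-labelled array at every one of their probe sets. The channel subunit SEC61A1 read 2178 and 2556 (0.23), with 0.40 at its dimmer probe set, while the small subunit SEC61B read 12602 and 12297 (−0.035).

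Both signal peptidase subunits among the members lay below 0 at their brightest probe set. SPCS2 read 8123 and 6887 (−0.24), with its 3 kept probe sets from −0.61 to −0.046. SPCS3 read 7908 and 6979 (−0.18), with the others at −0.021 and 0.031. The signal peptidase values therefore rest on the brightest probe set in SPCS3 and on all probe sets in SPCS2. Over the 6 genes of the group the median was 0.039, and it was −0.021 when the possibly cross-hybridising probe sets were left out.

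ER-associated degradation genes had the most disagreement between probe sets. The median over 6 genes was −0.074, with 2 above 0 and 4 below, and averaging over probe sets turned it to 0.047, so its direction is not settled. DERL2, a membrane protein of the retrotranslocation channel, read 1765 and 2428 (0.46) at its brighter probe set but 302 and 245 (−0.30) at the other. Its relative DERL1 read 4763 and 4621 (−0.044), with 0.096 and 0.092 at its other kept probe sets. SEL1L, the scaffold of the HRD1 ligase, read 1358 and 1105 (−0.30), while its dimmer probe sets gave −0.11, 0.82 and 1.22. The last of these read 57.1 and 133 units, the first value under the dim filter.

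The other degradation genes had fewer probe sets. EDEM1, a mannosidase-like protein that marks glycoproteins for disposal and is a known XBP1 target, read 339 and 267 (−0.34) at its single probe set. It is the dimmest of the 30 genes at its brightest probe set and the only one under the 377-unit class. HERPUD1, an ER stress gene that organises the ligase complex, read 5418 and 5042 (−0.10). OS9, a lectin that delivers substrates to the ligase, read 891 and 1017 (0.19), against −0.097 at its dimmer one. XBP1 and EDEM1 thus lay on opposite sides of 0.

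Brighter and dimmer ER genes had medians on opposite sides of 0. The 15 brighter genes, with mean intensities from 4691 to 21853, had a median of −0.061 with 4 above 0 and 11 below, where all 1290 genes in that range had a median of −0.0069. The 15 dimmer genes, from 301 to 4137, had a median of 0.12 with 9 above 0 and 6 below, against 0.0079 for the 7093 genes in their range. After a loess fit that removes the trend with brightness over all single-gene probe sets, HSPA5 differed by 0.26, PDIA4 by −0.50, SSR1 by 0.30, XBP1 by 0.56 and ERN1 by −0.38. These genes are examples. The fit does not address the split among the ER genes, whose brighter and dimmer medians after it are not given.

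Other genes of the same pathway, 144 in 6 lists set by function, were spread around 0. Of the 134 that were tested, 68 lay above 0 and 66 below, against 50.1% of all genes above 0, and the median was 0.010. At least 2-fold higher was 1 (CREB3) and at least 2-fold lower was 1 (DDIT3), against 3.55% and 3.85% of all genes. Both genes reached 377 units, and among the 8463 genes of that class the shares were 0.473% and 0.165%. DDIT3, at −1.82, had the lowest difference of that class. At 1.2-fold, 21 of the 134 were higher and 21 lower, against 21.7% and 22.0% of all genes. In the 377-unit class, which does not hold all of the 134, the shares were 16.2% and 16.0%. The members named next are the pair highest and the pair lowest in each list, chosen by that rule.

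Other folding factors had a median of 0.014 over 28 genes, with 15 above 0 and 13 below, and a median just below 0 after quantile normalization and in the 377-unit class. MOGS, the glucosidase that trims the first glucose from new glycans, read 193 and 341 (0.82). The prolyl isomerase FKBP10 read 46.9 and 88.6 (0.92), the first value under the dim filter. Each of these genes had a single kept probe set. FKBP14, a related isomerase, read 1029 and 605 (−0.77), with probe sets up to 0.030. ERO1A, the oxidase that recharges the disulfide isomerases, read 5350.4 and 4079 (−0.39), with its 3 probe sets from −0.41 to −0.30.

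The other translocation and signal recognition genes had a median of 0.031 over 18 genes, with 11 above 0 and 7 below. SEC11C, a catalytic subunit of signal peptidase, read 2766 and 4090.4 (0.56) and gave 0.39 at the dimmer of its probe sets, and SRPRA, the receptor of the signal recognition particle, read 788 and 1151 (0.55) and 0.58 at its dimmer one. The alternative catalytic subunit SEC11A read 14911 and 13848 (−0.11). TRAM2, a translocating chain protein, read 1956 and 1440.2 (−0.44), with its probe sets from −1.32 to −0.032. The catalytic subunits SEC11C and SEC11A of signal peptidase thus lay on opposite sides of 0, with SPCS2 and SPCS3 on the side of SEC11A at their brightest probe sets. The difference of SEC11A was smaller than the median gap of 0.18 between probe sets of the ER genes, and SPCS3 had a probe set at 0.031.

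The oligosaccharyltransferase, the enzyme that attaches glycans to proteins as they enter the ER, had the narrowest range of all these lists. Of its 11 tested genes 9 lay below 0 and 2 above, the median was −0.10 and the values ran from −0.17 to 0.045. DDOST read 13163 and 11682 (−0.17) and the catalytic subunit STT3B read 10162 and 9061 (−0.17). KRTCAP2 read 9097 and 9387 (0.045), against −0.18 at the dimmer of its probe sets and a mean below 0, and DAD1 read 13842 and 14147 (0.031). The list stayed below 0 under every alternative, between −0.11 and −0.076.

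**Figure D4:**
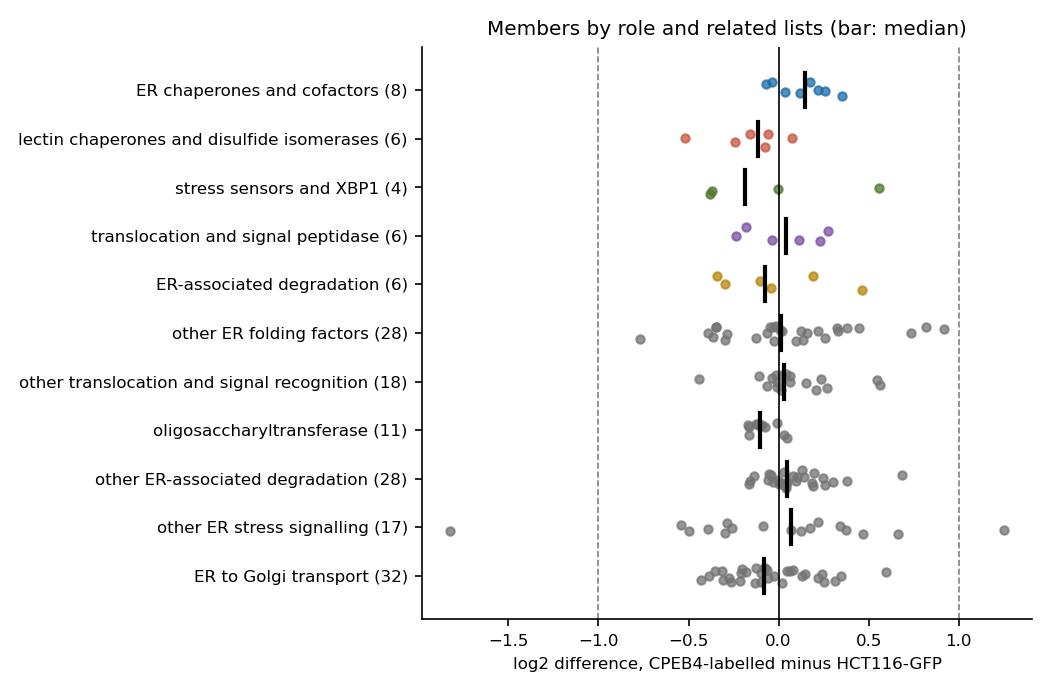
Log2 difference of the CPEB4-labelled array minus the HCT116-GFP array (horizontal axis) for each ER gene by role (coloured) and for each tested gene of the 6 related lists (grey), with the number of genes in parentheses, a black bar at the median and 2-fold dashed. Medians run from −0.19 (sensors and XBP1) to 0.15 (chaperones), and DDIT3 (−1.82) and CREB3 (1.25) are the points beyond 2-fold.

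Other degradation genes had a median of 0.045 over 28 genes, with 19 above 0 and 9 below. AUP1, which recruits a ubiquitin-conjugating enzyme to the ER membrane, read 1643 and 2645 (0.69) at its single kept probe set. That enzyme, UBE2G2, read 2953 and 3840.05 (0.38) with its 3 probe sets from 0.10 to 0.38. This enzyme and its recruiter were the highest of the list. At the other end, HERPUD2 read 2049 and 1825 (−0.17), with a probe set at 0.27, and EDEM2, a mannosidase-like relative of EDEM1, read 631 and 566 (−0.16).

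Other genes of ER stress signalling had a median of 0.070 over 17 genes, which was below 0 without the dim filter, in the 377-unit class and with the mean over probe sets. DDIT3, the factor CHOP induced downstream of PERK, read 2456 and 694 (−1.82) at its single kept probe set, while EIF2AK3 itself was at −0.0014. MBTPS1, the Golgi protease that makes the first cut in ATF6, read 1702 and 1168 (−0.54) and gave −1.19 at its dimmer one. CREB3, an ER-anchored transcription factor cut by the same proteases, read 575 and 1370 (1.25) at its single kept probe set. ZBTB8OS, the archease that assists the ligase joining spliced XBP1, read 2856 and 4518 (0.66), also at a single kept probe set.

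Genes of transport from the ER to the Golgi had a median of −0.079 over 32 genes, with 12 above 0 and 20 below. SEC23B, a COPII coat subunit, read 6014 and 9101 (0.60) with probe sets down to 0.015, and SEC24C, its cargo-binding partner in that coat, read 1014 and 1287 (0.34). TMED4, a cargo receptor, read 3319 and 2466 (−0.43), with 5 probe sets from −1.39 to −0.057. KDELR1, a receptor that returns escaped ER chaperones, read 5566 and 4259 (−0.39), against 0.077 at its dimmer one. The list stayed below 0 under every alternative, between −0.098 and −0.057.

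**Figure D5:**
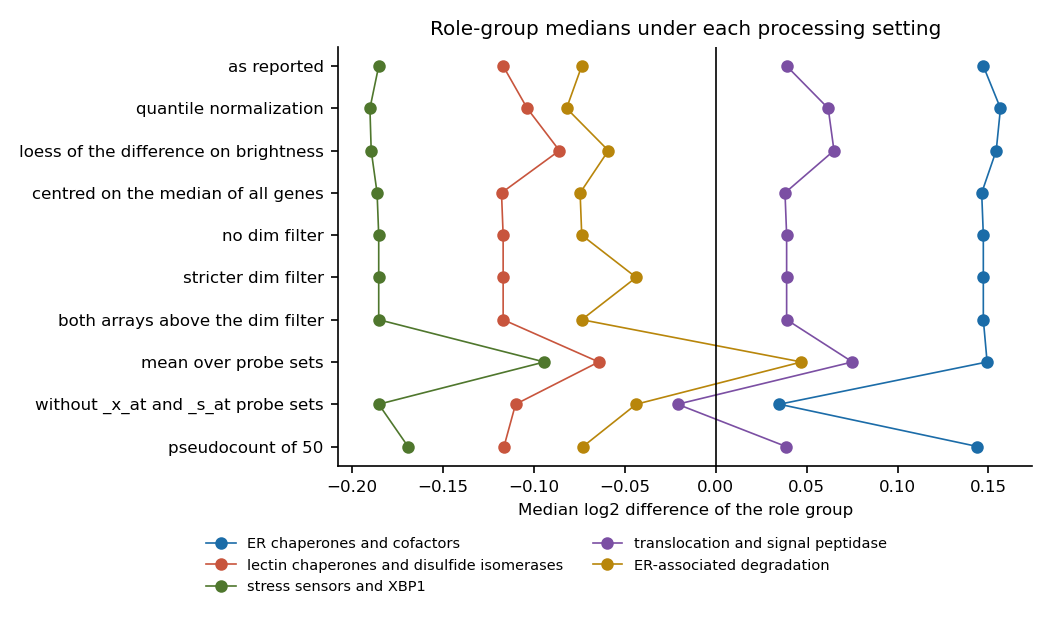
Median log2 difference of each role group (horizontal axis) as reported and under 9 processing alternatives (vertical axis), coloured by role. The chaperone median stays above 0, the lectin and isomerase median and the sensor median stay below 0, and the medians of the degradation group and the translocation group each cross 0 under 1 alternative.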

How the data were processed

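The authors' deposited table gives the linear intensity of each probe set on each array. Partek appears in the submitters' processing notes with no version, and how probes were summarised, background-corrected and scaled is not stated in the sources used. The means after trimming 2% at each end were 500.1 on both arrays, as after scaling to a common level. Of 54675 probe sets, 41097 have 1 gene symbol in the platform annotation, 1801 have several and 11777 are unnamed here. Symbols were updated through the RefSeq table of GRCh38.p14, which matched 41043 of those with 1 gene. The other probe sets were not used.

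A probe set was kept if its higher intensity reached 60.8, the 50th percentile of all values, which left 25010. A gene's value is that of its brightest kept probe set (by mean log2 intensity), with no pseudocount. Python 3.11.15, pandas 2.3.3 and statsmodels 0.14.6 (loess, span 0.3) were used, and the procedure was tested on simulated arrays. The differences planted there were larger than that of any ER gene, and the noise was the same for bright and dim probe sets. That test therefore does not cover differences as small as those described here. With 1 array a group the 2-fold rule is one of size, and precision is limited by the number of arrays. The 9 alternatives cover scaling, the dim filter, the choice of probe set and a pseudocount of 50. The members and lists were chosen with earlier results of these data known. The genes named are all members, CPEB4, the ACTB and GAPDH controls, and the 2 highest and 2 lowest of each related list. COL1A1 was named after its values were seen. Protein sequences were not used here.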

Additional observations from a re-analysis of the deposited data

How the results depend on the processing

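Each value was recomputed under 9 alternatives: quantile normalization, loess, centring on the median of all genes, no dim filter, a stricter filter (377 units), both arrays above the filter, the mean over probe sets, no probe sets ending in _x_at or _s_at, and a pseudocount of 50. The count of ER genes past 2-fold was 0 in each direction under all of them, and the count above 0 ran from 9 (of 23 genes, without the _x_at and _s_at probe sets) to 15. At 1.2-fold the counts ran from 4 to 6 higher and from 4 to 5 lower. The median over the ER genes ran from −0.037 to 0.017, the latter with the mean over probe sets. Medians were taken to have moved at a shift of 0.1. The chaperone median moved to 0.035 without the _x_at and _s_at probe sets, where 3 of its genes have no value and DNAJB9 is at 0.0017. With the mean over probe sets the degradation median moved to 0.047 and that of the other ER stress signalling genes to −0.083, and the latter was −0.089 under the stricter filter. The cause of these shifts with the mean over probe sets was not tested. Of the 30 genes, 27 kept their sign under every alternative that gave a value. EIF2AK3 changed sign after quantile normalization, and SEL1L and DERL1 with the mean over probe sets. CALR was 0.68, SSR3 0.61 and SPCS2 −0.61 without the _x_at and _s_at probe sets, where a dimmer probe set stands in, and DERL2 was 0.079 with the mean over probe sets. No paired analysis was possible because each group has 1 array.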
